A study of Mus musculus with 24 samples.

Results

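Metabotropic glutamate receptors are G protein-coupled receptors that sense glutamate, the main excitatory transmitter of the cortex. The genes described here were chosen by symbol and are Grm2, Grm3, Grm4, Grm5, Grm7 and Grm8, 6 of the 45777 genes in the deposited table. All 6 passed the filter on low counts, which left 18380 genes for testing. RNA-seq was made from prefrontal cortex, taken from wild-type adult males, in 4 groups of 6 libraries: Control (no treatment), MS (maternal separation: young pups are taken from their mother, a model of stress in early life), Control_EC12 (EC-12 alone) and MS_EC12 (maternal separation and EC-12). EC-12 is a preparation of heat-killed Enterococcus faecalis, a gut bacterium, and was given for 5 weeks. The comparisons ask whether receptor transcripts differ with rearing, with the supplement, or with their combination. The sources used here give neither the strain, nor the exact age, nor which animal each library came from, so a p-value reflects variation between libraries that may in part be technical.

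The family is divided into groups by sequence, G protein and pharmacology. Group I, represented here by Grm5 alone, couples through Gq to phospholipase C and calcium release, sits mostly around the postsynaptic density, and is anchored there by Homer proteins. Group II (Grm2 and Grm3) and group III (Grm4, Grm7 and Grm8) couple through Gi and Go, lower cyclic AMP and restrain transmitter release. Grm2 is chiefly a presynaptic neuronal receptor, whereas Grm3 is also made by astrocytes. Grm7 lies at the active zone and has a low affinity for glutamate, while Grm4 and Grm8 respond to lower concentrations.

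The 6 genes lie apart in the genome except for a shared chromosome. In GRCm38.p6, Grm5 (gene ID 108071) spans chr7:87583981-88135063, Grm2 (108068) chr9:106644534-106656109, and Grm3 (108069) chr5:9485236-9725352. Grm4 (268934) spans chr17:27422387-27513826, Grm7 (108073) chr6:110645349-111567230, and Grm8 (14823) chr6:27275121-28135146. Small RNA genes, non-coding RNA genes or pseudogenes lie within or overlap Grm5, Grm7 and Grm8. How reads were counted, and whether strand was used, is not stated in those sources, so reads of such overlaps cannot be told apart. Encoded proteins of the same receptor group were 68.4% to 74.6% identical (4 pairs), and those of different groups 43.0% to 46.9% (11 pairs).

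The transcripts differ in base composition. The GC content of the longest protein-coding transcript in GENCODE vM21 was 42.5% for Grm5, 45.9% for Grm8, 47.6% for Grm3, 47.8% for Grm7, 56.9% for Grm2 and 61.7% for Grm4. Among tested genes of known GC content, 12.4% had a lower GC content than Grm5 and 97.6% a lower one than Grm4. The difference is visible where receptors of a group encode the same residues with different codons. The coding stretches shown next are from GRCm38, 5′ to 3′ on the coding strand, with each G or C at the third codon position in capitals. In group III, 54 bases of a single exon encode the same 18 residues in Grm4 (exon 9, chr17:27434638-27434691, minus strand), Grm7 (exon 8, chr6:111358922-111358975, plus strand) and Grm8 (exon 8, chr6:27363190-27363243, minus strand).
Grm4: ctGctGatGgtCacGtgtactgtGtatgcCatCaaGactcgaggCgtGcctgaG
Grm7: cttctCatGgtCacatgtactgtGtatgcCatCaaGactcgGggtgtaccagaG
Grm8: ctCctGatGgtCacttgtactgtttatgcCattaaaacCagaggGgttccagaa
Grm4 has G or C at 12 of the 18 last codon positions, Grm7 at 9 and Grm8 at 7. Grm4 and Grm7 differ at 7 bases, all at the third codon position. Grm4 and Grm8 differ at 11 bases, of which 10 are at the third codon position. Over the whole coding sequence, the third position was G or C in 81.7% of codons in Grm4, 73.6% in Grm2, 58.6% in Grm5, 58.1% in Grm3, 56.1% in Grm7 and 51.8% in Grm8.

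Total counts ran from 26250197 to 39252382 per library, and the 6 receptors had between 288 (Grm8) and 7188 (Grm5) counts in a library. Libraries differed in how expression depended on GC content, measured as the slope of each gene's deviation from its mean log2 CPM (counts scaled to library size) on its GC content, in log2 units per 10 percentage points. The slope lay above 0 in 7 libraries (0 Control, 1 MS, 2 Control_EC12 and 4 MS_EC12), where it ran up to 0.646, and below 0 in the other 17. The 7 libraries are MS replicate 3, Control_EC12 replicates 3 and 4, and MS_EC12 replicates 3, 4, 5 and 6. Markers of cortical neurons were present in every group: 6 excitatory neuron genes summed to 2093 to 3175 TPM (scaled to transcript length and library size), and 6 inhibitory neuron genes to 1338 to 1685 TPM. The sum of 6 astrocyte markers, none at 0, was 1225 to 1306 TPM in Control, 1048 to 1255 in MS, 793 to 1424 in Control_EC12 and 821 to 1208 in MS_EC12. Marker sums of neighbouring tissue varied widely between libraries: 496 to 1255 TPM for 6 striatal genes, 23.8 to 439 for 6 olfactory bulb genes and 6.43 to 1140 for 5 choroid plexus genes. Hypothalamic markers were near 0 in most libraries, with Sim1 at 0 throughout Control and Hcrt at 0 throughout MS. In bulk tissue, fewer cells of a type and less RNA per cell cannot be told apart.

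Grm5 was the most abundant of the 6 receptors per length in every group, and Grm8 the least. In Control, the deposited TPM was 58.6 ± 4.74 for Grm5, 47.1 ± 4.28 for Grm3, 30.6 ± 2.46 for Grm7, 29.1 ± 4.15 for Grm2, 24.7 ± 2.11 for Grm4 and 10.5 ± 1.18 for Grm8 (mean ± SD, n = 6). The library ranges of Grm5 and Grm3 overlapped, although Grm5 was the higher of the pair in each of the 6 Control libraries. Grm3 lay above Grm7 with no overlap, Grm7, Grm2 and Grm4 overlapped their neighbours in that order, and Grm8 lay below the rest. The MS libraries had the same order. In Control_EC12, Grm2 (36.7 ± 6.73 TPM) stood above Grm7 (26.7 ± 4.93 TPM), with overlapping ranges. In MS_EC12, Grm5 (35.7 ± 11.8 TPM) and Grm3 (34.0 ± 10.7 TPM) were followed by Grm2 (31.4 ± 5.00), Grm4 (27.0 ± 4.49), Grm7 (23.2 ± 4.99) and Grm8 (7.24 ± 2.93). There, only Grm7 and Grm8 were neighbours without overlap.

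**Figure D1:**
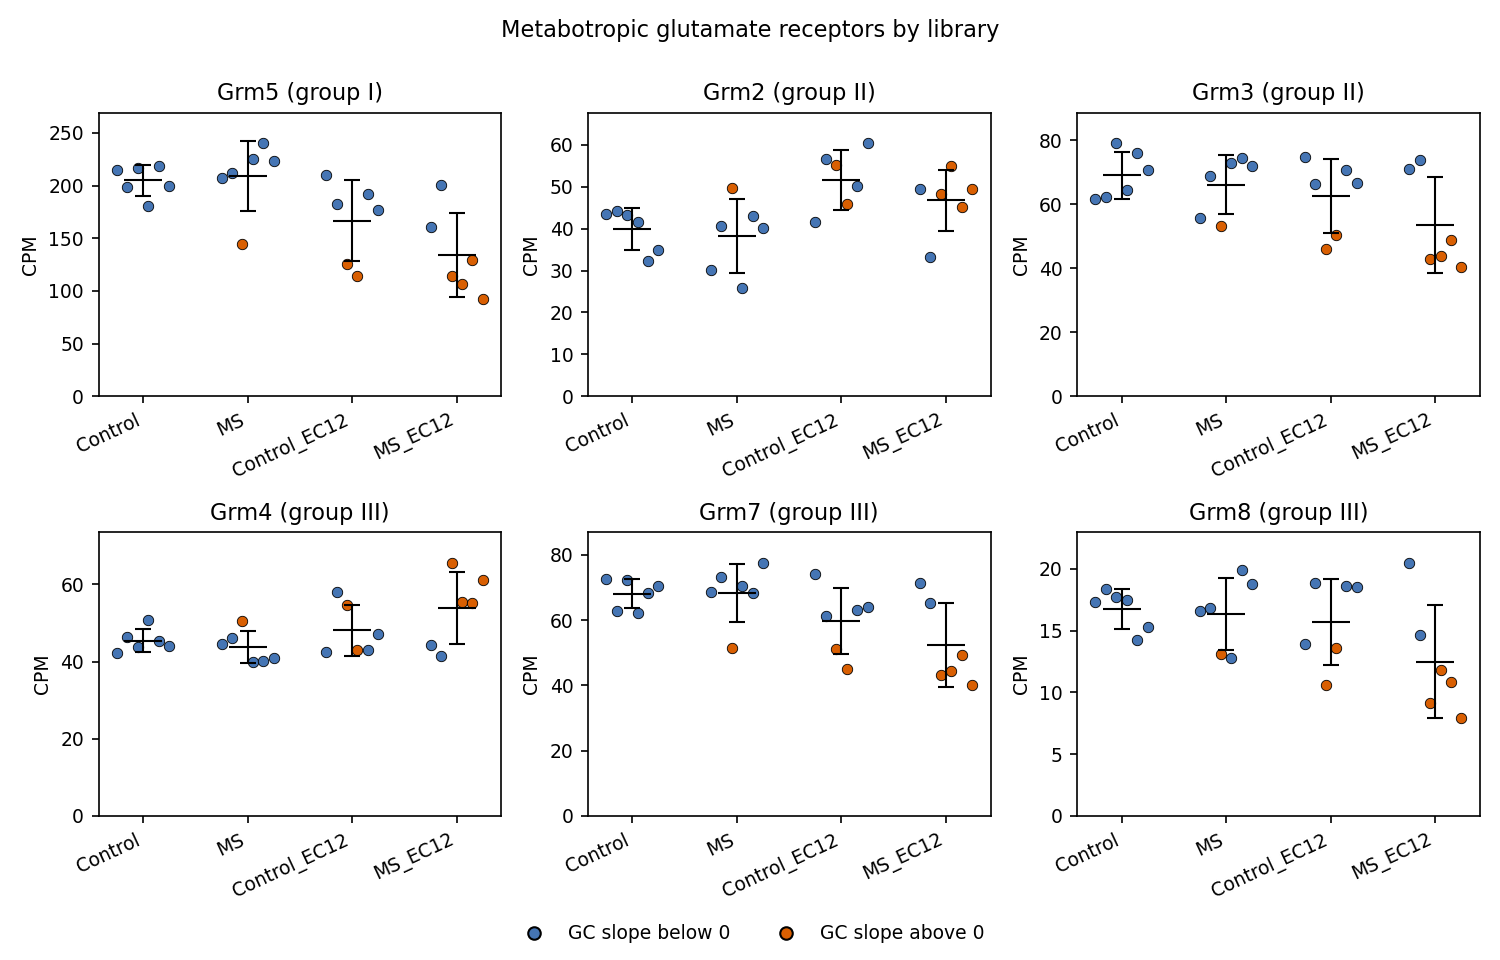
CPM of each receptor in the 24 libraries by group, with the mean and SD of 6 libraries as horizontal and error bars and the libraries coloured by whether their GC slope is above or below 0. The lowest Grm5, Grm3 and Grm7 libraries of MS, Control_EC12 and MS_EC12 are those of slope above 0.

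Maternal separation without the supplement left no receptor past the threshold. In MS against Control, edgeR's quasi-likelihood test called 0 of the 6 at an adjusted p under 0.05, where 0.0326% of all genes tested were called. At an unadjusted p under 0.05 the count was also 0 of 6 (3.6% of all genes), and DESeq2 and limma on TPM called 0. Grm5 ran from 181 to 219 CPM with a median of 207 in Control, and from 145 to 240.4 with a median of 218 in MS. The MS values lay on both sides of the Control values, and MS replicate 3 was the lowest. The log2 fold changes were 0.03 ± 0.16 for Grm5, -0.06 ± 0.14 for Grm2, -0.06 ± 0.15 for Grm3, -0.05 ± 0.10 for Grm4, 0.00 ± 0.13 for Grm7 and -0.04 ± 0.18 for Grm8 (± SE), each smaller than its error.

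The supplement in normally reared mice gave Grm2 its highest group mean, but no receptor passed. In Control_EC12 against Control, 0 of 6 receptors were called by edgeR, against 0.0218% of all genes tested, and DESeq2 and limma also called 0. Grm2, the presynaptic group II receptor, ran from 32.2 to 44.3 CPM (median 42.4) in Control and from 41.5 to 60.5 CPM (median 52.6) in Control_EC12. All 6 Control_EC12 libraries lay above the Control mean, while the ranges overlapped. The log2 fold change of Grm2 was 0.37 ± 0.14, with an unadjusted p of 0.0127 and an adjusted p of 0.411 in edgeR. Grm2 was the only receptor at an unadjusted p under 0.05, a level that 8.93% of all genes reached. Its value was 0.32 ± 0.13 with the GC slope as a covariate and 0.38 ± 0.14 in the 17 libraries of slope below 0, again not past the threshold (adjusted p = 0.248 and 0.235). The summed olfactory bulb markers ran from 33.4 to 221 TPM in Control and from 132 to 439 TPM in Control_EC12, and their part in the Grm2 values was not tested. Grm3, the other group II receptor, stood at -0.14 ± 0.15, Grm5 at -0.30 ± 0.16, Grm7 at -0.19 ± 0.13, Grm8 at -0.10 ± 0.18 and Grm4 at 0.08 ± 0.10.

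In separated mice, the supplemented libraries had less Grm5, Grm7, Grm3 and Grm8 and more Grm4 and Grm2 on average, with no receptor past the threshold. In MS_EC12 against MS, edgeR called 0 of 6 receptors, against 0.163% of all genes tested. All 6 were at an unadjusted p under 0.05, which 31.8% of all genes also reached. Grm5 ran from 92.3 to 200.4 CPM with a median of 122 in MS_EC12, against a median of 218 in MS. All 6 MS_EC12 libraries lay below the MS mean, and the ranges overlapped because MS replicate 3 was low. The log2 fold change of Grm5 was -0.64 ± 0.16 (edgeR adjusted p = 0.0754).

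Among the group III receptors, Grm7 ran from 51.4 to 77.6 CPM (median 69.6) in MS and from 40.1 to 71.5 CPM (median 47.0) in MS_EC12. Its log2 fold change was -0.38 ± 0.13 (edgeR adjusted p = 0.0877). Grm4 took the other direction, from 39.9 to 50.6 CPM (median 42.7) in MS and from 41.4 to 65.6 CPM (median 55.3) in MS_EC12, at 0.30 ± 0.10 (adjusted p = 0.0875). For each, 5 of 6 MS_EC12 libraries lay on that side of the MS mean. With the GC slope as a covariate, Grm7 was at -0.09 ± 0.08 and Grm4 at 0.09 ± 0.08, and in the 17 libraries of slope below 0 they were at -0.07 ± 0.08 and 0.02 ± 0.10. Grm8 stood at -0.39 ± 0.18, and the group II receptors at 0.29 ± 0.14 for Grm2 and -0.31 ± 0.15 for Grm3 (adjusted p from 0.144 to 0.155). The count depended on tool and library. DESeq2 called 3 of 6 (10.3% of all genes), limma on log2(TPM + 1) called 1 (0.876%), and edgeR called 4 without MS replicate 3 (21.6%), 5 without MS_EC12 replicate 1 (27.6%) and 5 without MS_EC12 replicate 2 (25%).

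Grm5 fell in MS_EC12 against Control and was the only receptor called there. Its CPM ran from 181 to 219 in Control (median 207) and from 92.3 to 200.4 in MS_EC12 (median 122). All 6 MS_EC12 libraries lay below the Control mean, and 1 of them, replicate 2 at 200.4 CPM, reached into the Control range. The log2 fold change was -0.61 ± 0.16, or 0.654 times the Control level, with an edgeR adjusted p of 0.0330 (n = 6 per group). The count of 1 of 6 receptors stood beside 14.1% of all genes tested, and 6.8% called lower.

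The call on Grm5 moved with the libraries used and with their GC slope. With the GC slope as a covariate, the log2 fold change of Grm5 was -0.23 ± 0.09 (adjusted p = 0.319), and in the 17 libraries of slope below 0, of which 2 are MS_EC12, it was -0.18 ± 0.09 (adjusted p = 0.355). The call was lost without Control replicate 1, 2, 3, 5 or 6 and without MS_EC12 replicate 3, 4, 5 or 6, and kept without Control replicate 4 and MS_EC12 replicate 1 or 2, with adjusted p from 0.00666 to 0.103. Without Control replicate 4, 1 receptor was called, beside 2.83% of all genes tested in that fit. Without MS_EC12 replicate 1, 5 receptors were called, beside 35.7% of all genes, and without MS_EC12 replicate 2, 4 were called, beside 33.5%.

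The other receptors had values on both sides of 0 in the same comparison and did not pass. Grm7 ran from 62.3 to 72.7 CPM (median 69.4) in Control, against a median of 47.0 CPM in MS_EC12, at a log2 fold change of -0.38 ± 0.13 (edgeR adjusted p = 0.0521). Grm3 ran from 61.7 to 79.1 CPM (median 67.5) in Control and from 40.3 to 74.0 CPM (median 46.4) in MS_EC12, at -0.37 ± 0.15 (adjusted p = 0.0767). The Grm3 libraries of MS_EC12 fell apart into 4 below the Control range and 2 within it. Grm8 ran from 14.3 to 18.4 CPM (median 17.4) in Control and from 7.92 to 20.5 CPM (median 11.3) in MS_EC12, at -0.43 ± 0.18 (adjusted p = 0.0887). Grm4 and Grm2 were the receptors with positive values, at 0.25 ± 0.10 (adjusted p = 0.0852) and 0.23 ± 0.14 (adjusted p = 0.220). Of the 6, 5 were at an unadjusted p under 0.05, as were 38.3% of all genes. DESeq2 called 2 receptors (24.2% of all genes) and limma on log2(TPM + 1) called 4 (22.0%) and on log2(TPM + 0.1) 4 (22.4%), all with lower values in MS_EC12.

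Among the astrocyte markers, Aqp4 and Gja1 fell and Aldh1l1 rose in MS_EC12 against Control by the same test. These are 3 called of 6, beside 14.1% of all genes tested. The part of astrocyte content in the values of Grm3, which astrocytes also make, was not tested. The microglial genes C1qa and C1qb rose, 2 called of 6 microglial markers, of which 5 had values above 0. The 6 summed to 287 to 319 TPM in Control and 305 to 391 TPM in MS_EC12. Single calls were spread over other marker lists. There was 1 called higher each for inhibitory neurons (3 of 6 above 0), hypothalamus (2 of 2 tested) and choroid plexus (3 of 4 tested). The 1 call among oligodendrocyte markers was lower, although 4 of the 6 had values above 0 and their median was 0.24. For thalamus 1 was called lower, with 2 of 5 above 0. The remaining marker lists had no call. These marker calls are from the fit of all 24 libraries without a covariate. With the GC slope as a covariate, calls among all genes in this comparison went from 2594 to 38, and the markers were not looked at separately there.

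**Figure D2:**
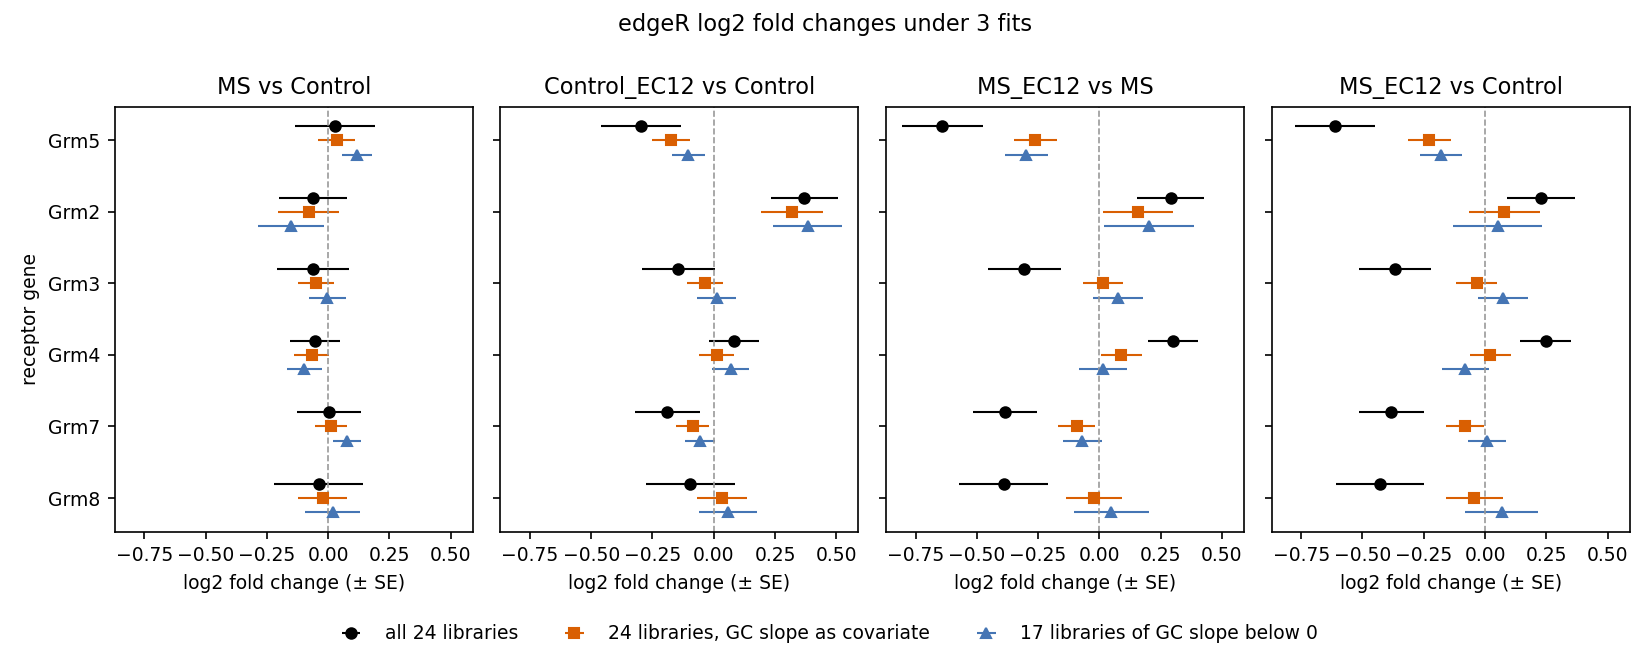
Log2 fold change with its SE for the 6 receptors in 4 comparisons, from edgeR on all 24 libraries, on 24 libraries with the GC slope as a covariate, and on the 17 libraries of slope below 0. In MS_EC12 against Control, Grm5 is at -0.61, -0.23 and -0.18 in the 3 fits.

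Separation among supplemented mice gave no call. In MS_EC12 against Control_EC12, edgeR called 0 of 6 receptors against 0.261% of all genes tested, with 0 at an unadjusted p under 0.05 (15.9% of all genes), and DESeq2 and limma called 0. Grm8 stood at -0.33 ± 0.18, Grm5 at -0.32 ± 0.16, Grm3 at -0.22 ± 0.15, Grm7 at -0.19 ± 0.13, Grm2 at -0.14 ± 0.14 and Grm4 at 0.16 ± 0.10 (adjusted p from 0.321 to 0.546). The interaction of rearing and supplement, which tests whether the effect of EC-12 differs between rearings, called 0 of 6 by edgeR, DESeq2 and limma, against 0.0109% of all genes by edgeR, with 0 at an unadjusted p under 0.05 (4.8% of all genes). The largest interaction in size among the 6 was that of Grm5, at -0.34 ± 0.23, followed by Grm8 at -0.29 ± 0.26 and Grm4 at 0.22 ± 0.15. The interaction of Grm5 had an unadjusted p of 0.148 in edgeR and ran from -0.49 to -0.25 when each library was left out, so a difference of EC-12 between rearings was not shown for it. These comparisons share libraries with one another, so their values are not independent.

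Expressed as shares of the summed TPM of the 6 receptors, group I took less and group II more in the supplemented groups. Group I, Grm5 alone, held 29.2 ± 1.27% in Control, 30.2 ± 3.46% in MS, 24.8 ± 3.16% in Control_EC12 and 22.1 ± 4.33% in MS_EC12 (SD, n = 6). Group II held 38.0 ± 1.32%, 37.0 ± 2.80%, 42.0 ± 1.64% and 41.3 ± 2.00% in the same order. Group III held 32.8 ± 1.03%, 32.7 ± 2.02%, 33.2 ± 2.09% and 36.5 ± 3.21%. The library ranges overlapped for group I (27.0% to 30.6% in Control, 17.7% to 30.0% in MS_EC12) and for group III (31.1% to 34.1% and 31.5% to 39.9%). They overlapped for group II too, with 36.2% to 39.98% in Control and 38.6% to 43.8% in MS_EC12. The group II range of Control_EC12, 39.4% to 43.9%, overlapped that of Control more narrowly. The shares are descriptions and were not tested.

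**Figure D3:**
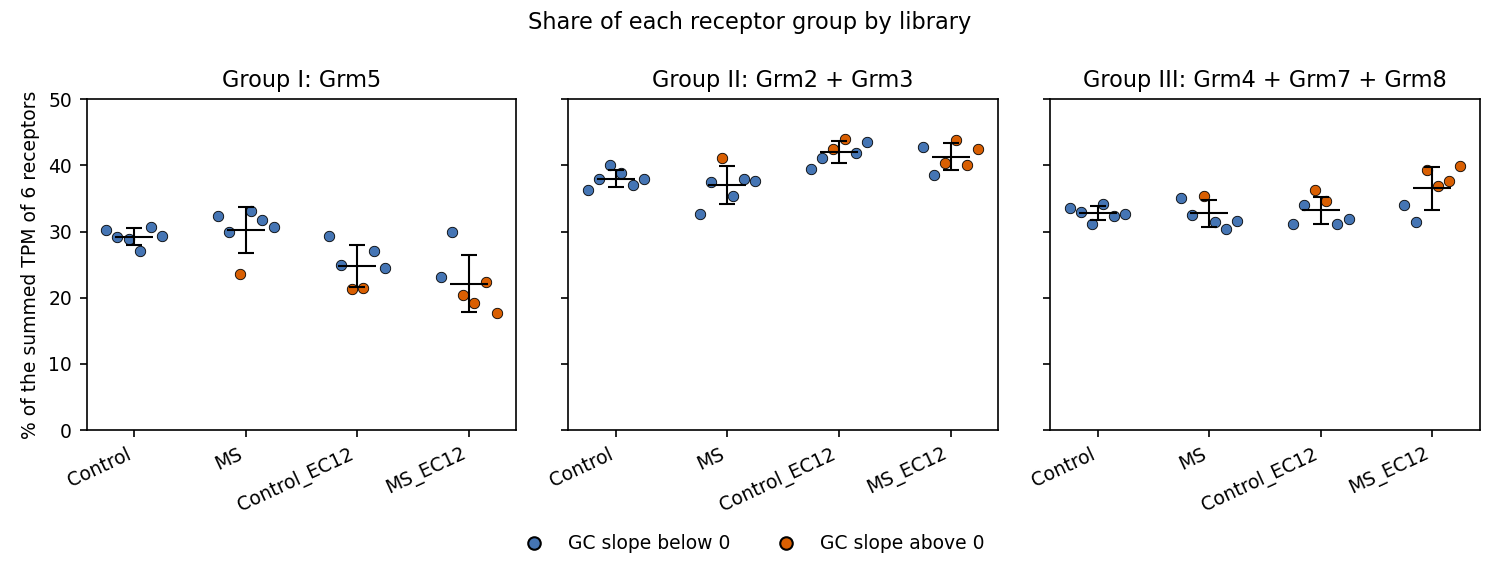
Percentage of the summed TPM of the 6 receptors held by group I, group II and group III in each of the 24 libraries, with the mean and SD of each group of libraries and colours for a GC slope above or below 0. Group I ranges from 17.7% to 30.0% in MS_EC12, and its lowest libraries there have a slope above 0.

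Within group II the 2 members went apart. The ratio of Grm3 to Grm2 in TPM was 1.66 ± 0.357 in Control, 1.72 ± 0.533 in MS, 1.16 ± 0.312 in Control_EC12 and 1.13 ± 0.519 in MS_EC12. It ran from 0.750 to 1.03 in the 7 libraries of slope above 0 and from 1.04 to 2.66 in the other 17. Group III split in the same way, with Grm4 above 0 and Grm7 and Grm8 below 0 in both comparisons of MS_EC12 with unsupplemented mice. Receptors of the same group thus had values of opposite sign over all 24 libraries: the receptors of transcripts under 50% GC had negative values and those over 55% GC positive values in MS_EC12 against Control.

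In MS_EC12 against Control, genes of low GC content had lower values than genes of high GC content, among tested genes of known GC content. The median log2 fold change was -0.36 for the 2696 genes of 40% to 45% GC and -0.12 for the 3898 genes of 45% to 50%. It was 0.20 for the 3078 genes of 55% to 60% and 0.22 for the 798 genes above 60%. Grm2 at 0.23 and Grm4 at 0.25 were near the medians of their bands. Grm5 at -0.61 was below the lower quartile of its band, -0.53, and Grm3, Grm7 and Grm8 at -0.37, -0.38 and -0.43 were below that of theirs, -0.30. In MS against Control the medians of the same bands were -0.03, -0.01, 0.00 and -0.03.

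**Figure D4:**
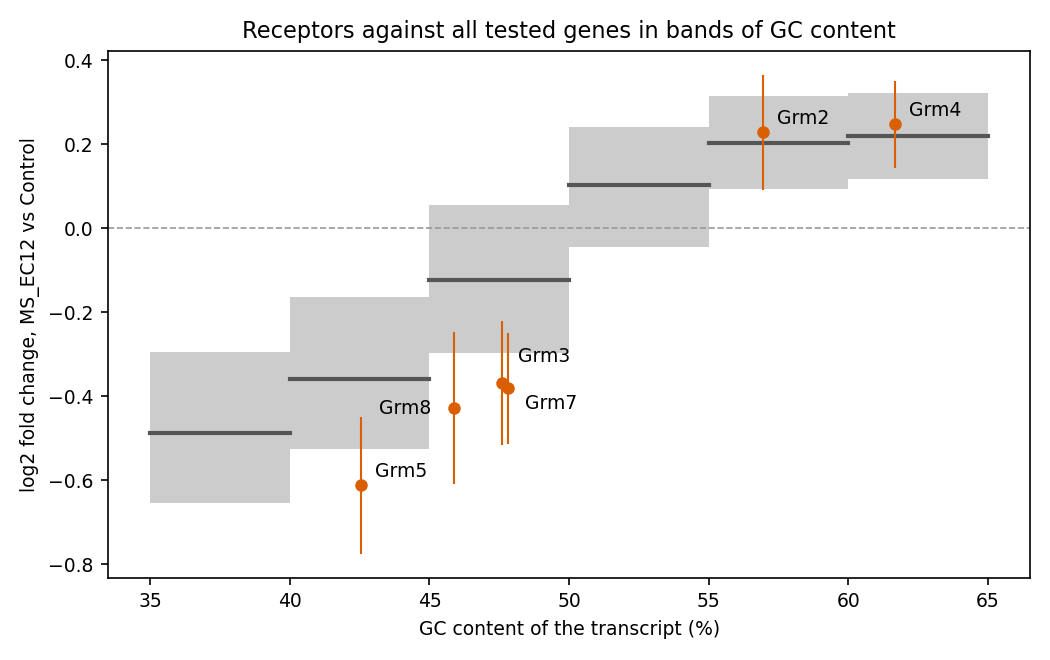
Log2 fold change with SE of each receptor in MS_EC12 against Control, plotted at the GC content of its transcript. Lines and grey areas give the median and quartiles of tested genes of known GC content, in bands of which the outermost are open-ended. The band medians climb from -0.49 at or below 40% to 0.22 above 60%, and Grm5 lies at -0.61.

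Across all groups, 3 receptors separated the 7 libraries of slope above 0 from the other 17. The slope was computed from the same log2 CPM values, over all tested genes of known GC content. By definition, a slope above 0 means that genes of low GC content were lower there relative to genes of high GC content. The separation is therefore not independent of how the libraries were divided. Grm5 ran from 92.3 to 145 CPM in the 7 and from 161 to 240.4 CPM in the 17, Grm3 from 40.3 to 53.3 and from 55.7 to 79.1 CPM, and Grm7 from 40.1 to 51.4 and from 61.2 to 77.6 CPM. These 3 of 6 stand beside 10.6% of all tested genes that were lower without overlap. Higher without overlap were 0 of 6, beside 7.52% of all tested genes. Neither share was restricted to genes of similar GC content. Grm8, at 7.92 to 13.6 and 12.8 to 20.5 CPM, overlapped narrowly. Grm2 (45.1 to 55.2 and 25.7 to 60.5 CPM) and Grm4 (43.1 to 65.6 and 39.9 to 58.0 CPM) overlapped more widely and were higher on average in the 7. The astrocyte marker sum was also lower without overlap in the 7 libraries, at 793 to 1048 TPM against 1179 to 1424 TPM, and the microglial sum higher, at 337 to 391 TPM against 287 to 319 TPM. The part of cell content in these values was not tested.

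**Figure D5:**
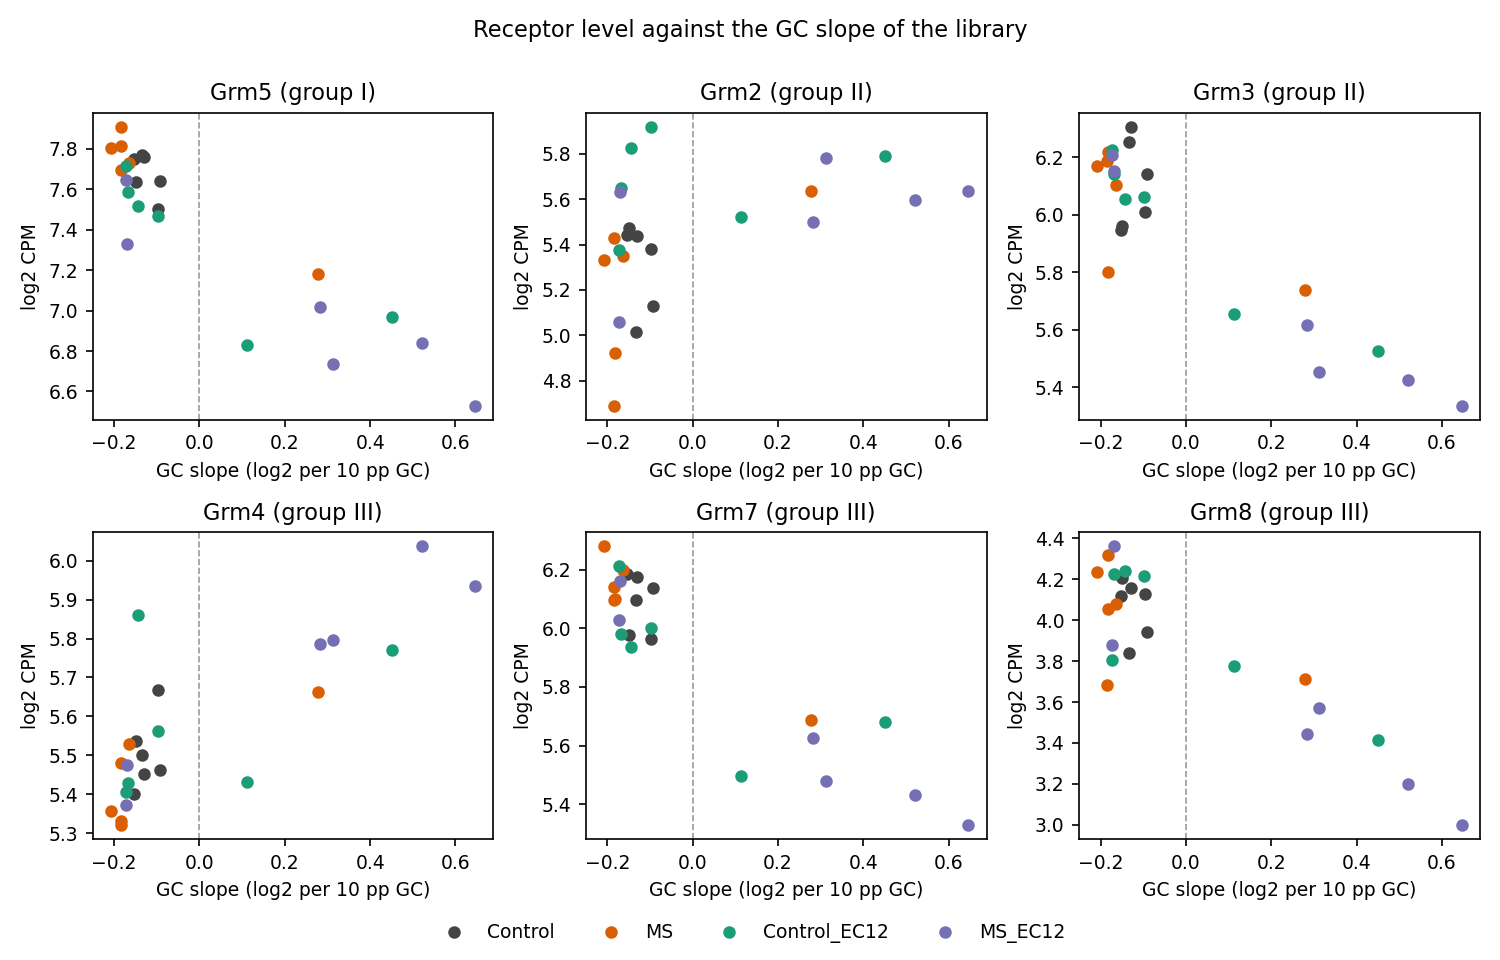
Log2 CPM of each receptor against the GC slope of the library (log2 units per 10 percentage points), with points coloured by group and a dashed line at 0. The 7 libraries right of 0 lie below the other 17 for Grm5, Grm3 and Grm7, and overlap them for Grm2, Grm4 and Grm8.

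In the 17 libraries of slope below 0, the other receptors had MS_EC12 values close to those of Control. The log2 fold changes were 0.07 ± 0.10 for Grm3, 0.01 ± 0.08 for Grm7, 0.07 ± 0.15 for Grm8, -0.08 ± 0.10 for Grm4 and 0.05 ± 0.18 for Grm2. Grm3, Grm7, Grm8 and Grm4 had changed sign relative to the fit on all libraries. Grm5 kept its sign, at -0.18 ± 0.09 against Control (edgeR adjusted p = 0.355) and -0.30 ± 0.09 against MS (adjusted p = 0.232). Its unadjusted p in edgeR was under 0.05 in both comparisons. That level was reached by 2539 of the 18380 genes against Control and by 1735 against MS in these libraries. With 2 MS_EC12 libraries left, these values rest on few samples.

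Of 12 genes that carry the signal of group I receptors, 3 fell and 0 rose in MS_EC12 against Control, where 14.1% of all genes tested were called and 6.8% were called lower. Homer1, the scaffold that ties group I receptors to the postsynaptic density, ran from 138 to 194 CPM in Control and from 96.7 to 154 CPM in MS_EC12, at a log2 fold change of -0.40 ± 0.12 (edgeR adjusted p = 0.0409). Plcb1, a phospholipase C that the receptors activate, stood at -0.44 ± 0.15 (adjusted p = 0.0471), and Gnaq, the alpha subunit of Gq, at -0.27 ± 0.09 (adjusted p = 0.0472). Cnr1, the cannabinoid receptor that answers endocannabinoids released after group I activation, was at -0.33 ± 0.11 and missed the threshold (adjusted p = 0.0511). Of the 12, 5 had values above 0 and the rest below. Gna11 was at 0.26 ± 0.09 (edgeR adjusted p = 0.0559) and Homer3, a further Homer gene, at 0.36 ± 0.13 (adjusted p = 0.0585), also short of the threshold. The median over the 12 genes was -0.22, against 0.01 for all genes tested. With the GC slope as a covariate, 0 of the 12 were called, with 0 at an unadjusted p under 0.05, and Homer1 stood at -0.17 ± 0.11, Plcb1 at -0.11 ± 0.09 and Gnaq at -0.08 ± 0.06. DESeq2 called 7 of the 12 without the covariate, 5 lower and 2 higher, beside 24.2% of all genes. With edgeR, 8 were called without MS_EC12 replicate 1 (35.7% of all genes) or 2 (33.5%), and 0 without any other single library of either group.

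Of 13 genes of group II and III coupling, edgeR called 0 in MS_EC12 against Control, with 4 at an unadjusted p under 0.05 (38.3% of all genes), while DESeq2 called 2 (24.2%) and limma on log2(TPM + 1) 3 (22.0%). Gnai3, an inhibitory G protein subunit, was at -0.51 ± 0.20 (adjusted p = 0.0687), and Kcnj3, a subunit of the potassium channel that Gi-coupled receptors open, at -0.35 ± 0.14 (adjusted p = 0.0687). The other 2 at that level were the inhibitory subunits Gnai1, at -0.27 ± 0.11 (edgeR adjusted p = 0.0759), and Gnai2, in the other direction at 0.23 ± 0.10 (adjusted p = 0.103). Of the 13, 5 had values above 0, and the median was -0.07. With the GC slope as a covariate, Gnai3 was at -0.02 ± 0.08 and Kcnj3 at -0.03 ± 0.07, and 0 of the 13 were called. At an unadjusted p under 0.05, which 11.3% of all genes reached in that fit, 2 of the 13 were found, Gnaz, an inhibitory G protein subunit, at -0.18 ± 0.06 and Kcnj9, a further potassium channel subunit, at -0.18 ± 0.06.

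Of 18 receptor partners, desensitisation genes and ligand enzymes, 1 rose and 1 fell, a share near the 14.1% of all genes tested, and DESeq2 called 5 (24.2% of all genes). Arrb2, a beta-arrestin that takes part in receptor desensitisation, ran from 36.2 to 40.4 CPM in Control and from 39.0 to 52.9 CPM in MS_EC12, at 0.26 ± 0.08 (adjusted p = 0.0416). Rgs4, which speeds the shutting off of Gq and Gi signals, stood at -0.33 ± 0.10 (adjusted p = 0.0425). With the GC slope as a covariate, 0 of the 18 were called, with 0 at an unadjusted p under 0.05, and Arrb2 was at 0.07 ± 0.05 and Rgs4 at -0.17 ± 0.09. The edgeR counts were 4 of 13 and 8 of 18 without MS_EC12 replicate 1, where 35.7% of all genes were called, 4 of 13 and 7 of 18 without replicate 2 (33.5%), and 0 without any other library.

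In the other 5 comparisons edgeR called 0 of these pathway genes in the fit of all libraries. In MS_EC12 against MS, unadjusted p-values under 0.05 were found for 9 of the 12 group I coupling genes, 3 of the 13 of group II and III coupling and 7 of the 18 partners, beside 31.8% of all genes. DESeq2 called 7, 1 and 2 genes of the 3 lists there, beside 10.3% of all genes, and edgeR called 2 to 9 genes of each list without MS replicate 3, MS_EC12 replicate 1 or MS_EC12 replicate 2, fits in which 21.6% to 27.6% of all genes were called. Among group I coupling genes, 3 in Control_EC12 against Control (8.93% of all genes) and 0 in MS against Control (3.6%) were at an unadjusted p under 0.05.

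Homer1 was also lower on average in supplemented mice without separation. It stood at -0.60 ± 0.12 in Control_EC12 against Control and did not pass in the edgeR fit of all libraries (adjusted p = 0.0669). It was at -0.53 ± 0.09 with the GC slope as a covariate (edgeR adjusted p = 0.00554, 0.724% of all genes called) and at -0.44 ± 0.09 in the 17 libraries of slope below 0 (adjusted p = 0.0252, 0.473%), both past the threshold. DESeq2 (0.403%) and edgeR without Control replicate 1 (0.131%) or without Control_EC12 replicate 5 (0.0326%) called it as well. Each of these fits called 1 of the 12 genes, as did the replicate block, where 33 of the 18380 genes were called. Homer1 was not called by edgeR with RLE scaling, without a filter, in the compared groups alone or without any other single library. Neither limma fit called it. Homer3, of the same list, went the other way, at 0.46 ± 0.13 in the fit of all libraries (edgeR adjusted p = 0.244). It was at 0.40 ± 0.12 with the covariate (edgeR adjusted p = 0.104) and at 0.40 ± 0.12 in the 17 libraries (adjusted p = 0.162). Of the 12, 2 had values above 0 in the fit of all libraries and the rest below. Of the 13 genes of group II and III coupling, the covariate fit called Gnaz, at -0.21 ± 0.05 (edgeR adjusted p = 0.0488). In MS against Control, the 17 libraries gave 1 call among the 18 partners, Elfn2, a synaptic adhesion protein, at -0.29 ± 0.05 (edgeR adjusted p = 0.0153, 0.484% of all genes called), against -0.25 ± 0.09 in the fit of all libraries, which did not pass. Gna11, Homer3, Gnaz, Kcnj9 and Elfn2 were chosen for naming after their values were seen.

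The genes whose log2 CPM most resembled each receptor over the 24 libraries were, for Grm5, Gprin3 (r = 0.981), Akap5 and Osbpl8. Akap5 is a scaffold of kinases at the postsynaptic density. For Grm3 they were Tmem56 (r = 0.956), Dlg2 and Man1a2, for Grm7 Dnal1 (r = 0.966), Kctd16 and Csmd3, and those for Grm8 included Usp46 (r = 0.950) and Kif2a. For Grm4 they were Caskin2 (r = 0.908), Gdpd5 and Lbh, and for Grm2 Rasl11b (r = 0.875), Bid and Trim62. The values are Pearson coefficients given as descriptions, since the libraries share their GC slopes. The 3 genes nearest Grm5 had transcripts of 40.1% to 44.0% GC, and the 3 nearest Grm4 of 51.4% to 60.6%.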

How the data were processed

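Groups and replicate numbers came from the labels. The labels' protocols state ISOGEN II for RNA extraction and the TruSeq Stranded mRNA kit for libraries. Among aligners and assemblers, the submitters' processing notes list HISAT2 2.1.0 and StringTie 2.1.3b, and for read quality FastQC 0.11.7 with Trimmomatic 0.38, besides DESeq2 and the build mm10; what each did, and with which settings, is not given in these sources. Per the file headers, the deposited table holds read counts, FPKM and TPM per gene, and the authors left the counts unnormalized. Counts were used for the tests, TPM for levels between genes and FPKM for nothing printed.

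Genes were filtered with filterByExpr (minimum count 10, minimum total 15) and tested by edgeR's quasi-likelihood method (edgeR 4.0.16, R 4.3.3), scaled by TMM, in a joint fit of all 24 libraries that had a coefficient for each group and no covariate. A call was a 2-sided p under 0.05 after Benjamini-Hochberg adjustment over the 18380 genes. Alternatives were DESeq2 1.42.0, limma 3.58.1 on log2(TPM + 1) and log2(TPM + 0.1), RLE scaling, no filter, the compared groups alone, a replicate block, the GC slope as a covariate (15145 tested genes had a GC content), the 17 libraries of slope below 0, and each library left out. The fit was tested on simulated data. No libraries were duplicates by a chi-square of counts. Identifiers of 99.79% of genes matched RefSeq of GRCm38.p6, and coding stretches were read from GRCm38 with GENCODE vM21. Depth limited Grm8 most, at 288 to 659 counts.

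All 6 receptors are named in every comparison, with up to 4 genes of each pathway list by smallest p, those passing first, and for each receptor the 3 genes of highest correlation, of which 1 is not reported here. The receptors and lists were chosen with earlier results of these data known.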

Additional observations from a re-analysis of the deposited data

Results flagged for a closer look

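In MS, the library of replicate 3 stood apart from the other 5 for Grm5, at 145 CPM, and for Grm7, at 51.4 CPM, each the lowest of its group by Dixon's test. Both values come from the same library, the only MS library with a GC slope above 0. The test was made on 24 sets of 6 libraries, and chance flags about 1 in 20 such sets.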

How the results depend on the processing

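The number of receptors called in MS_EC12 against Control, 1 with edgeR, was 2 with DESeq2, 4 with limma on log2(TPM + 1) and on log2(TPM + 0.1), and 0 without a filter, with the GC slope covariate and in the libraries of slope below 0. In MS_EC12 against MS, 0 with edgeR, it was 3 with DESeq2 and 1 with limma on log2(TPM + 1). Leaving out each library in turn gave 0 to 5 in both comparisons. The causes were not tested. In the other 4 comparisons, each alternative run gave 0.

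Replicate numbers did not pair the libraries as a whole. The deviations of same-numbered libraries from their group means correlated at -0.30 to 0.57, and 5 of 24 libraries correlated best with their own number. For replicate 1, all 6 pairs correlated positively, at 0.12 to 0.36. Whether libraries of some numbers share a batch was not tested. With the replicate number as a block, 3 receptors were called in MS_EC12 against MS and 4 in MS_EC12 against Control, and 0 in the other comparisons. Of the 12 group I coupling genes, it called 8 in each of these 2, and 1 in Control_EC12 against Control and in MS_EC12 against Control_EC12.

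Signs changed for receptors that were not called before or after. In MS_EC12 against Control, the libraries of slope below 0 gave 0.074 for Grm3, -0.081 for Grm4, 0.0068 for Grm7 and 0.068 for Grm8. Against MS they gave 0.076 for Grm3 and 0.049 for Grm8, and the GC slope covariate 0.014 for Grm3. Against Control_EC12 they gave 0.061 for Grm3, -0.15 for Grm4, 0.061 for Grm7 and 0.0094 for Grm8, and the covariate 0.0028 for Grm3 and 0.0037 for Grm7. In Control_EC12 against Control they gave 0.012 for Grm3 and 0.058 for Grm8, and the covariate 0.033 for Grm8. In the interaction they gave 0.064 for Grm3 and -0.053 for Grm4, and the covariate 0.051 for Grm3. In MS against Control, Grm8 was at 0.019 in those libraries, and Grm7 at -0.020 and -0.019 with limma on log2(TPM + 0.1) and log2(TPM + 1) and at -0.0037 with the replicate block. Leaving out a library there gave -0.15 to 0.035 for Grm2, -0.016 to 0.11 for Grm5, -0.037 to 0.073 for Grm7 and -0.10 to 0.027 for Grm8, and in the interaction -0.17 to 0.010 for Grm2.

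Counts of all genes called moved by over 1.5 times under several settings. In MS_EC12 against Control, 2594 became 4439 with DESeq2, 4110 and 4046 with limma on log2(TPM + 0.1) and log2(TPM + 1), 339 without a filter, 5939 with the replicate block, 38 with the covariate and 193 in the libraries of slope below 0, and 10 to 6565 when a library was left out. In MS_EC12 against MS, 30 became 1894, 5, 161, 1, 3809, 3 and 14 in the same order, 0 in the compared groups alone, and 0 to 5064 when a library was left out. In MS_EC12 against Control_EC12, 48 became 177 with DESeq2, 17 and 16 with limma, 2 in the compared groups alone, 232 with the block and 14 to 189 when a library was left out. In Control_EC12 against Control, 4 became 74 with DESeq2, 2 with either limma fit and in the compared groups alone, 33 with the block, 133 with the covariate, 87 in the libraries of slope below 0 and 4 to 24 when a library was left out. In MS against Control, 6 became 22 with DESeq2, 3 with limma on log2(TPM + 0.1), 13 in the compared groups alone, 10 with the block, 60 with the covariate, 89 in the libraries of slope below 0 and 2 to 8 when a library was left out. The interaction count of 2 became 19 with DESeq2, 0 with limma, 1 without a filter, 9 with the block, 7 with the covariate and 0 to 4 when a library was left out.

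In MS_EC12 against Control, 1344 higher and 1250 lower became 613 and 3433 with limma on log2(TPM + 1), which changes test and scaling. The all-gene median went from 0.01 to -0.10 on log2(TPM + 0.1). In MS_EC12 against MS, 28 higher and 2 lower became 21 and 140. By CPM, which is not scaled to length, Grm5 stayed the highest receptor and Grm8 the lowest in each group, and the order between them differed.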
